A study of Homo sapiens with 3 samples.

Results

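The mitochondrial carrier family SLC25 was followed through the gene values of 3 libraries with an input of 10 pg polyA+ mRNA. HBE is a human bronchial epithelial cell line and A549 is a lung adenocarcinoma cell line, and the labels give no treatment for either. HBE LIEA and A549 LIEA were made from fragmented mRNA and sequenced on Ion Torrent, whereas HBE Smart-seq2 was made from cDNA amplified after oligo-dT priming and sequenced on Illumina. The cDNA libraries of LIEA were amplified by PCR as well. Each condition had 1 library, made from diluted mRNA of cultured cells, so no difference below has a replicate check and no p is given. The 2 comparisons, A549 with HBE and LIEA with Smart-seq2, share the HBE library made by LIEA. Members were all symbols starting with SLC25A, which gave 48 of the 18856 genes listed in any library. Of these 48, 44 were carriers and the other 4 were antisense or pseudogene transcripts.

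Carriers of this family sit mostly in the inner mitochondrial membrane and move nucleotides, phosphate, carboxylates, amino acids, cofactors and iron between the cytosol and the matrix. The ADP/ATP carriers export the ATP made by oxidative phosphorylation. Others run the malate-aspartate shuttle, release citrate for lipid synthesis, or bring in folate, glutathione, glycine and iron for pathways of the matrix. Several substrates have more than 1 carrier gene, and such paralogs are often used in different tissues.

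The values are log2 rpkM, reads scaled to the transcript length and to the total of mapped reads, on a log2 scale without a pseudocount. Recovered totals were 4605855 reads for HBE LIEA, 4154060 for A549 LIEA and 9845150 for Smart-seq2. The reads behind each value were recovered arithmetically, and a gene was counted as quantified at 10 reads or more. Intervals given in parentheses are exact 95% intervals from the reads (Clopper-Pearson). PCR copies are not independent molecules, so the intervals describe counting error alone and not variation between libraries. As a check of the labels, the basal bronchial markers KRT5, KRT14, KRT17 and TP63 summed to 1686 rpkM in HBE LIEA, 6125 in HBE Smart-seq2 and 8.28 in A549 LIEA, where KRT14 was not listed. All 5 epithelial markers were quantified in each library. The label places A549 in the alveolar epithelium. Of the 4 alveolar type 2 markers, only SFTPB was quantified, with 1.24 rpkM in HBE LIEA, 1.31 in A549 LIEA and 1.36 in Smart-seq2. These values do not set A549 apart from HBE. NKX2-1 had 1 read in HBE LIEA, 4 in Smart-seq2 and none in A549 LIEA. SFTPA1 and SFTPC were listed in none of the 3 libraries. Of the blood and fibroblast markers, only CD68 and COL1A1 were quantified in any library. The endothelial markers PECAM1 and VWF summed to between 0.487 and 2.08 rpkM.

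Because several carriers are close paralogs, the coding sequences of those with the largest read numbers or the closest copies are shown first. SLC25A5 (chromosome X), SLC25A6 (pseudoautosomal region of chromosome X) and SLC25A4 (chromosome 4) encode ADP/ATP carriers with coding sequences of equal length, 894 bases without the stop codon. The stretch below is coding bases 181 to 300, all in exon 2 of 4. Among stretches of 120 bases within 1 exon that start at a codon, it has the fewest summed differences of SLC25A6 and SLC25A4 from SLC25A5. Capitals mark bases that differ from SLC25A5. On GRCh37 it lies at chrX:118603693-118603812 (plus strand) in SLC25A5, chrX:1508432-1508551 (minus strand) in SLC25A6 and chr4:186065987-186066106 (plus strand) in SLC25A4.
SLC25A5: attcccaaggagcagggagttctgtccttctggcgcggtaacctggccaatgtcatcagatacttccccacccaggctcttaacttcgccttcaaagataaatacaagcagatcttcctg
SLC25A6: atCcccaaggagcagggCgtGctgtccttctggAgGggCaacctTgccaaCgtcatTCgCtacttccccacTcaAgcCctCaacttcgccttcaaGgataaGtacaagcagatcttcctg
SLC25A4: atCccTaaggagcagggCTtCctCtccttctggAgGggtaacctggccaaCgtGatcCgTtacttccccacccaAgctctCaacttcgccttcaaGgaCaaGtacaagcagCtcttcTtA

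Even in this stretch SLC25A6 differed from SLC25A5 at 17 of the 120 bases and SLC25A4 at 20. Over the whole coding sequence, SLC25A5 was 78.7% identical to SLC25A6 and 77.2% to SLC25A4. The mapping allowed 3 errors for LIEA reads and 2 for Smart-seq2 reads. Of the 845 windows of 50 bases, 12 differed between SLC25A5 and SLC25A6 at no more than 3 bases and 2 at no more than 2. The coding GC content was 52.5% for SLC25A5, 62.9% for SLC25A6 and 55.1% for SLC25A4. RefSeq also lists 9 pseudogenes of SLC25A5 and 6 of SLC25A6, none of which is among the genes listed here, and reads shared with them were not tested.

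SLC25A51, a mitochondrial NAD+ carrier, and its near copy SLC25A52 are a different case. The stretch below is coding bases 322 to 441 of 891, the codon-aligned 120 bases within 1 exon in which they differ most. Capitals mark the 7 bases of SLC25A52 that differ. The stretch lies on GRCh37 at chr9:37888107-37888226 (minus strand), in exon 3 of 3 of SLC25A51, and at chr18:29340184-29340303 (minus strand), in the single exon of SLC25A52.
SLC25A51: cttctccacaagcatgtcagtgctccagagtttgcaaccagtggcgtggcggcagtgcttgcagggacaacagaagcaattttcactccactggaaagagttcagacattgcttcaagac
SLC25A52: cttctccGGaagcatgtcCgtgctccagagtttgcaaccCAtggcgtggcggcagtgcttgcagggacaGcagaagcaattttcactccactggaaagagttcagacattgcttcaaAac

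The coding sequences of this pair were 97.6% identical. Of the windows of 50 bases, 97.7% differed at no more than 3 bases and 90.4% at no more than 2. A read of 50 bases from the coding part of 1 gene would therefore mostly lie within the error allowance of the other. The mean LIEA read was longer than 50 bases, and longer reads can span more differences. Where the mapping placed such reads was not tested, so the values of both genes are uncertain. The rest of the transcripts, of 3723 bases for SLC25A51 and 1185 for SLC25A52, was not compared.

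RefSeq annotates 48 protein-coding genes named SLC25A and a number, of which 44 were listed in at least 1 library and 41 in all 3. The carriers listed in none were SLC25A2, an ornithine carrier, SLC25A31, an ADP/ATP carrier known from testis, SLC25A47 and SLC25A48. A gene that is not listed had no reads, which allows up to 3 reads, or 0.651 RPM (reads scaled to the total) in HBE LIEA, 0.722 RPM in A549 LIEA and 0.305 RPM in Smart-seq2. The carriers quantified numbered 39 in HBE LIEA, 38 in A549 LIEA and 39 in Smart-seq2. Over all 18856 genes listed anywhere, 65.7%, 67.2% and 69.0% were quantified in these libraries. Of the 44, 35 were quantified in all 3 libraries and 7 in some of them. The remaining 2, the glutamate carrier SLC25A18 and the ATP-Mg/phosphate carrier SLC25A41, had at most 2 reads in any library.

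Carriers held 15560 reads in HBE LIEA, 0.338% of the total (0.333 to 0.343), 12927 in A549 LIEA, 0.311% (0.306 to 0.317), and 23191 in Smart-seq2, 0.236% (0.233 to 0.239). For 5 carriers these read sums use reads multiplied by a whole factor above 1, which is uncertain and which the intervals do not cover. The summed level of all carriers was 1849 rpkM, 1750 rpkM and 1068 rpkM in the same order. Levels of the quantified carriers ran from -1.38 to 9.17 log2 rpkM in HBE LIEA, from -0.99 to 9.20 in A549 LIEA and from -1.60 to 7.49 in Smart-seq2. By LIEA a few carriers made up most of the sum: SLC25A5, SLC25A6, the phosphate carrier SLC25A3 and the glutathione carrier SLC25A39 held 75.4% of it in HBE LIEA and 76.8% in A549 LIEA. In Smart-seq2 the highest 4 were SLC25A5, SLC25A39, SLC25A3 and the oxoglutarate carrier SLC25A11, with 49.3%. The median of the quantified carriers was 3.57 log2 rpkM in HBE LIEA, 2.97 in A549 LIEA and 3.50 in Smart-seq2, against 3.26, 3.09 and 2.82 for all quantified genes.

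**Figure D1:**
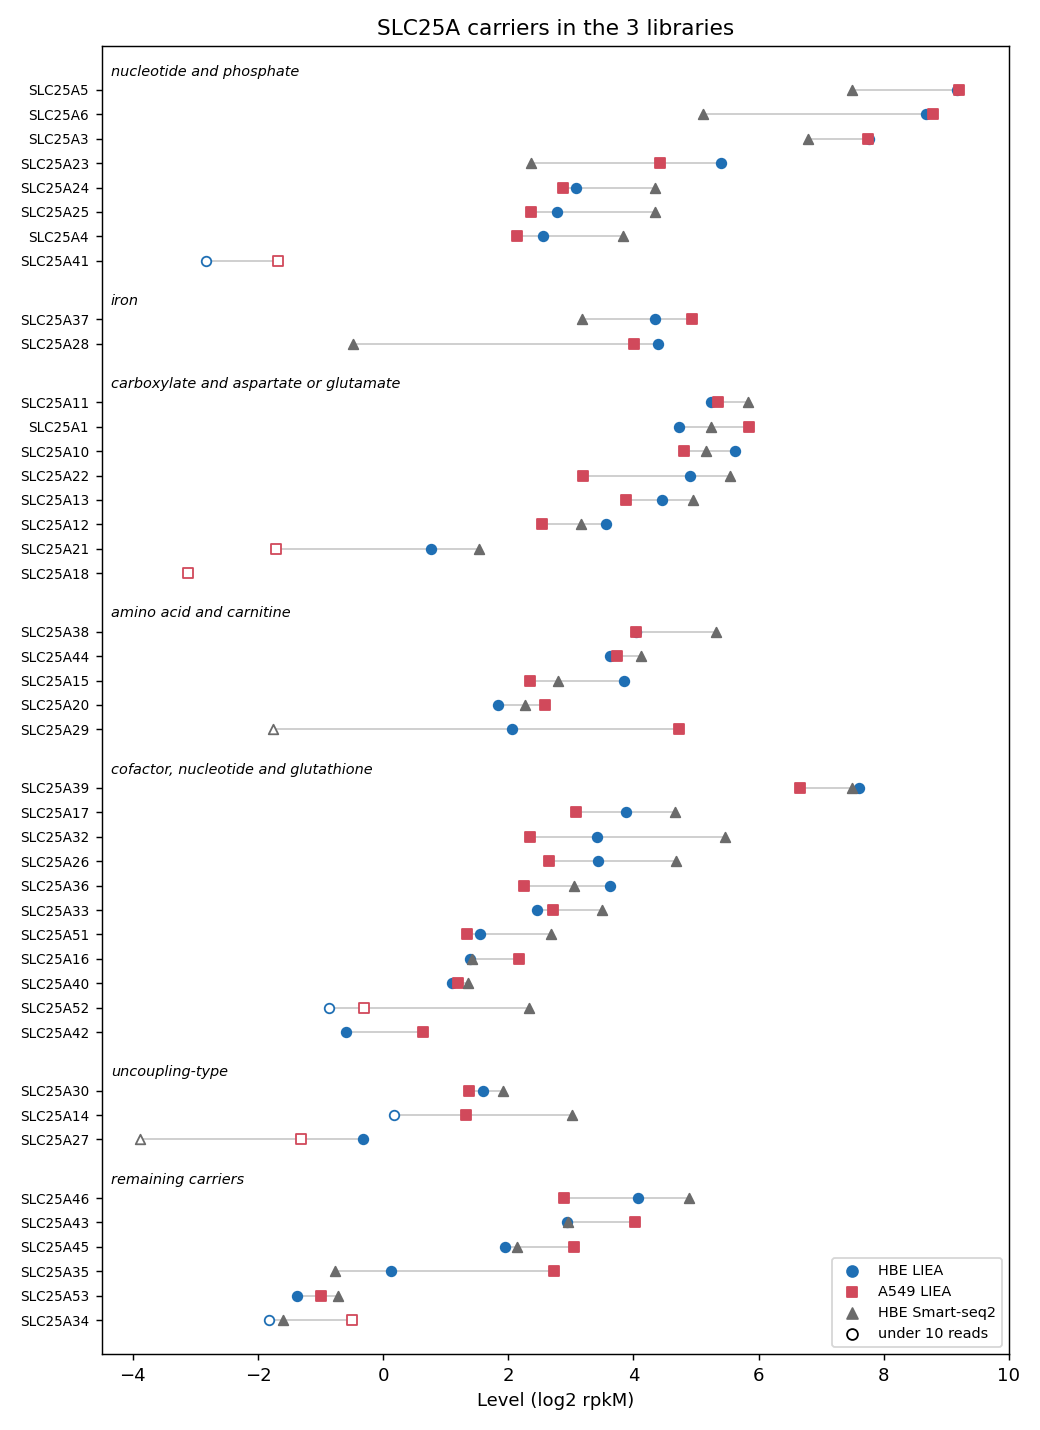
Level of 43 of the 44 listed carriers (log2 rpkM, horizontal axis) in HBE LIEA (blue circles), A549 LIEA (red squares) and HBE Smart-seq2 (grey triangles), grouped by role, with open symbols where a gene had under 10 reads. SLC25A5, SLC25A6, SLC25A3 and SLC25A39 stand highest, and the widest spans are those of SLC25A29 and SLC25A28, whose lowest value is in Smart-seq2.

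SLC25A5 and SLC25A6 had the highest levels of the family by LIEA, and the 2 cell lines differed little in them. SLC25A5 had 9.17 log2 rpkM in HBE LIEA (3572 reads), 9.20 in A549 LIEA (3292 reads) and 7.49 in Smart-seq2 (2385 reads). SLC25A6 had 8.68, 8.79 and 5.11 log2 rpkM, from 2796, 2720 and 503 reads. SLC25A4, the form that dominates in heart and skeletal muscle, had 2.55, 2.14 and 3.83 log2 rpkM, from 119, 81 and 621 reads. For SLC25A5 and SLC25A6 the Smart-seq2 library was below both LIEA libraries, and for SLC25A4 the Smart-seq2 library was the highest. By LIEA, A549 minus HBE was 0.03 log2 (-0.04 to 0.10) for SLC25A5, 0.11 (0.03 to 0.19) for SLC25A6 and -0.41 (-0.83 to 0.01) for SLC25A4.

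The make-up of the ADP/ATP carriers was close between the 2 lines by LIEA and different by Smart-seq2. SLC25A5 took 58.0% of the summed rpkM of the 3 genes in HBE LIEA, 56.8% in A549 LIEA and 78.6% in Smart-seq2. SLC25A6 took 41.4%, 42.7% and 15.1%, and SLC25A4 took 0.591%, 0.427% and 6.26%. Within HBE, the level of SLC25A6 was 11.9-fold higher by LIEA than by Smart-seq2 (log2 difference 3.57, 3.43 to 3.71), that of SLC25A5 was 3.20-fold higher (1.68, 1.60 to 1.75), and that of SLC25A4 was lower, with a log2 difference of -1.29 (-1.58 to -1.0). The order SLC25A5, SLC25A6, SLC25A4 was the same in the 3 libraries.

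**Figure D2:**
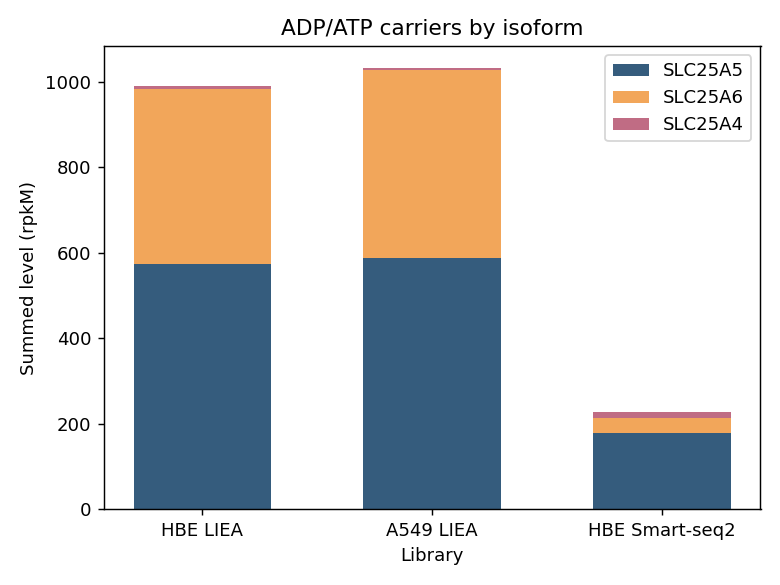
Summed level (rpkM, vertical axis) of the ADP/ATP carriers SLC25A5, SLC25A6 and SLC25A4 in each library (horizontal axis), stacked by gene, with 1 library per bar and no error bar. The sum is 989 rpkM in HBE LIEA and 1032 in A549 LIEA but 228 in Smart-seq2, and SLC25A6 makes up 41.4%, 42.7% and 15.1% of it.

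The comparison of A549 with HBE by LIEA asks which carriers differ between the cancer line and the bronchial line under 1 protocol. Of the 37 carriers quantified in both libraries, 6 were at least 2-fold higher in A549 and 7 at least 2-fold lower. These are 16.2% and 18.9% of the carriers, while of all 11356 genes quantified in both, 13.5% were higher and 17.3% lower, so the shares are near those of all genes. The median difference of the carriers was -0.21 log2 against -0.16 for all genes, that is, close to the centre of the 2 libraries. With rpkM rescaled to the same sum in each library (TPM), which moves every difference by -0.16, 3 carriers were higher and 9 lower. In RNA of whole cultures, a difference in the share of cells and a difference in RNA per cell cannot be told apart. For 5 carriers, SLC25A29, SLC25A35, SLC25A22, SLC25A15 and SLC25A36, the whole counting interval lay past 2-fold. The share of all genes past 2-fold by this stricter rule was not computed. The Smart-seq2 value of HBE, given beside carriers below, differs from A549 LIEA in method as well as in line.

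**Figure D3:**
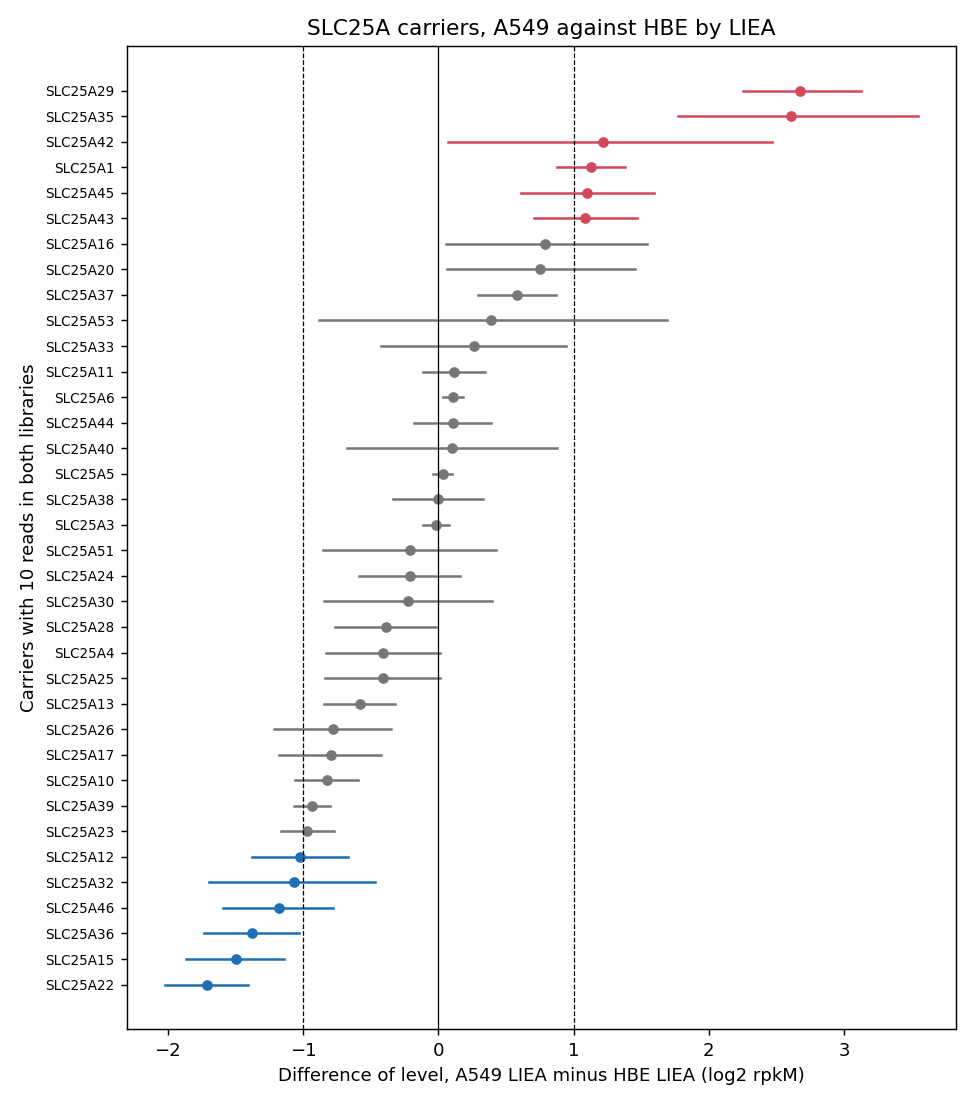
Difference of level, A549 LIEA minus HBE LIEA (log2 rpkM, horizontal axis), for 36 of the 37 carriers with 10 reads in both libraries; bars are exact 95% counting intervals, dashed lines mark 2-fold, red and blue mark carriers at least 2-fold higher or lower in A549. SLC25A29 and SLC25A35 lie farthest to the right and SLC25A22 farthest to the left.

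The largest positive difference was that of SLC25A29, a carrier of basic amino acids, on chromosome 14 at 100757453 to 100772884 (GRCh37). It had 2.06 log2 rpkM in HBE LIEA (53 reads), 4.73 in A549 LIEA (305 reads) and -1.77 in HBE Smart-seq2 (8 reads). A549 stood above both HBE libraries, and by LIEA its level was 6.38-fold that of HBE (log2 difference 2.67, 2.25 to 3.12). Within HBE the methods themselves differed by 3.82 log2 for SLC25A29, from 53 and 8 reads. SLC25A35 had 0.13, 2.73 and -0.78 log2 rpkM, from 14, 77 and 16 reads, a log2 difference of 2.61 between A549 and HBE by LIEA (1.78 to 3.55). Its exons share 878 bases, 22.2% of its exonic bases, with RANGRF on the opposite strand. The exonic bases are those of its annotated transcripts together, 3952, while its recovered length was 2785. How much of the overlap lies in the counted transcript was not tested. The use of strand in the counting is not given in the sources used here. RANGRF itself had 4.43 log2 rpkM in HBE LIEA, 4.75 in A549 LIEA and 3.75 in Smart-seq2.

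Among the carriers of carboxylates and glutamate, 1 was higher and 2 were lower in A549 of 6 compared, beside 13.5% higher and 17.3% lower among all genes. The citrate carrier SLC25A1, which exports citrate for fatty acid and sterol synthesis, had 4.72 log2 rpkM in HBE LIEA (204 reads), 5.85 in A549 LIEA (402 reads) and 5.23 in Smart-seq2 (623 reads). A549 was the highest of the 3, 2.18-fold above HBE by LIEA (1.13, 0.88 to 1.38), but the TPM scale puts SLC25A1 under 2-fold, at 0.97 log2. The glutamate carrier SLC25A22 had 4.91, 3.20 and 5.54 log2 rpkM, from 410, 113 and 1357 reads. A549 was the lowest of the 3 here, with a log2 difference of -1.71 from HBE by LIEA (-2.02 to -1.41).

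The aspartate-glutamate carriers SLC25A12 and SLC25A13 of the malate-aspartate shuttle both had lower values in A549. SLC25A12 had 3.57, 2.55 and 3.16 log2 rpkM in HBE LIEA, A549 LIEA and Smart-seq2, a difference of -1.02 between the lines (-1.38 to -0.67), which was -0.86 after centring on the median of all genes. SLC25A13 had 4.46, 3.88 and 4.94 log2 rpkM, with a difference of -0.58 (-0.84 to -0.32) that stayed within 2-fold. SLC25A13 was above SLC25A12 in every library, by 0.89 log2 in HBE LIEA (0.64 to 1.15), 1.33 in A549 LIEA (0.97 to 1.70) and 1.79 in Smart-seq2 (1.61 to 1.97). The oxoglutarate carrier SLC25A11, the partner of the same shuttle, had 5.24, 5.35 and 5.83 log2 rpkM and differed by 0.12 between the lines (-0.11 to 0.35). The dicarboxylate carrier SLC25A10 had 5.62, 4.80 and 5.16 log2 rpkM, with A549 the lowest and a difference of -0.82 (-1.06 to -0.59). SLC25A21, the oxodicarboxylate carrier, was left out of the 37 because A549 had 5 reads, against 31 in HBE LIEA and 112 in Smart-seq2 (-1.71, 0.77 and 1.53 log2 rpkM). Its exons share 1442 bases, 37% of its exonic bases, with PAX9 on the opposite strand, which had 86, 24 and 163 reads in HBE LIEA, A549 LIEA and Smart-seq2.

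Of the 5 amino acid and carnitine carriers compared, 1 was at least 2-fold higher in A549 and 1 at least 2-fold lower. Among all genes, 13.5% were higher and 17.3% lower. Beside SLC25A29, which was higher in A549, the ornithine carrier SLC25A15 of the urea cycle had 3.84 log2 rpkM in HBE LIEA (266 reads), 2.35 in A549 LIEA (85 reads) and 2.79 in Smart-seq2 (274 reads). A549 was below both HBE libraries, with a log2 difference of -1.50 by LIEA (-1.87 to -1.14). The other 3 compared were within 2-fold: SLC25A20, the carnitine-acylcarnitine carrier of fatty acid oxidation, differed by 0.75 (0.06 to 1.45), SLC25A44, a branched-chain amino acid carrier, by 0.11 (-0.18 to 0.39), and the glycine carrier SLC25A38 of heme synthesis by -0.00 (-0.34 to 0.33). In HBE LIEA, A549 LIEA and Smart-seq2, SLC25A20 had 1.83, 2.58 and 2.27 log2 rpkM and SLC25A44 had 3.63, 3.74 and 4.12.

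Carriers of cofactors, nucleotides and glutathione had a median difference of -0.78 log2 over the 11 compared, against -0.16 for all genes. Of these, 3 were at least 2-fold lower and 1 was higher, beside 17.3% lower and 13.5% higher among all genes. The pyrimidine nucleotide carrier SLC25A36 had 3.63 log2 rpkM in HBE LIEA (265 reads), 2.25 in A549 LIEA (92 reads) and 3.05 in Smart-seq2 (379 reads). A549 was the lowest library, with a difference from HBE by LIEA of -1.38 (-1.74 to -1.03). SLC25A32, which carries folate or FAD, had 3.41, 2.34 and 5.46 log2 rpkM and a difference of -1.07 (-1.69 to -0.47 from its smallest whole reads), or -0.91 after the same centring. SLC25A33, which also carries pyrimidine nucleotides, had 2.46, 2.72 and 3.50 log2 rpkM, and its difference between the lines was 0.26 (-0.42 to 0.95 from its smallest whole reads). Thus SLC25A36 was above SLC25A33 in HBE LIEA by 1.17 log2 (0.67 to 1.70), while the difference was -0.47 in A549 LIEA (-1.02 to 0.10) and -0.46 in Smart-seq2 (-0.72 to -0.18).

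SLC25A39, which imports glutathione, was the fourth highest carrier by LIEA, with 7.60 log2 rpkM in HBE (1437 reads) and 6.66 in A549 (677 reads), and had 7.48 in Smart-seq2 (2838 reads). A549 was the lowest of the 3, and its difference from HBE by LIEA, -0.94 (-1.07 to -0.80), was just within 2-fold, but past it on the TPM scale, at -1.10. SLC25A40, the related carrier, was far lower in every library, with 1.10, 1.20 and 1.35 log2 rpkM. SLC25A39 minus SLC25A40 was 6.50 log2 in HBE LIEA (5.99 to 7.06), 5.46 in A549 LIEA (4.93 to 6.04) and 6.13 in Smart-seq2 (5.81 to 6.47). The coenzyme A carrier SLC25A42 had -0.59 log2 rpkM in HBE LIEA (10 reads) and 0.63 in A549 LIEA (21 reads), and was not listed in Smart-seq2. Its difference between the lines was 1.22 log2 with a wide interval (0.07 to 2.47). Within 2-fold, the peroxisomal carrier SLC25A17 had 3.87 log2 rpkM in HBE LIEA, 3.08 in A549 LIEA and 4.67 in Smart-seq2, and SLC25A16 had 1.38, 2.17 and 1.42.

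Of the carriers without a role group, 3 of the 5 compared were higher in A549 and 1 was lower, while 13.5% and 17.3% of all genes were. Beside SLC25A35, SLC25A43 had 2.94, 4.02 and 2.96 log2 rpkM in HBE LIEA, A549 LIEA and Smart-seq2, and SLC25A45 had 1.95, 3.05 and 2.14. In both, A549 stood above the HBE libraries, which were close to each other, and the differences between the lines by LIEA were 1.08 (0.71 to 1.47) and 1.10 (0.61 to 1.59). On the TPM scale both were under 2-fold. SLC25A46, an outer membrane member tied to mitochondrial dynamics, had 4.08, 2.90 and 4.89 log2 rpkM and a difference of -1.18 (-1.60 to -0.78). SLC25A53 was low throughout, with -1.38, -0.99 and -0.73 log2 rpkM, and so was SLC25A34, with -1.82, -0.50 and -1.60 from 4, 9 and 10 reads.

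The comparison of LIEA with Smart-seq2 in HBE asks how the same carriers read by each method. The library method and the sequencer cannot be told apart here. Of the 36 carriers quantified by both, 6 were at least 2-fold higher by LIEA and 8 at least 2-fold lower. Over all 11788 genes quantified by both, 27.8% were higher and 19.4% lower, and 47.2% differed by 2-fold in either direction, against 38.9% of the carriers. The median difference, LIEA minus Smart-seq2, was -0.38 log2 for the carriers and 0.10 for all genes. The TPM scale adds 0.20 to every difference and gives 8 higher and 6 lower. For 8 carriers the whole counting interval lay past 2-fold, and for 15 it lay within 2-fold. These 2 counts were not made over all genes, so they have no share to be read against.

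Both mitoferrins, which bring iron into the matrix, were at least 2-fold higher by LIEA, as were 27.8% of all genes quantified by both methods. SLC25A28 (mitoferrin-2, chromosome 10 at 101370276 to 101382550 on GRCh37) had 4.40 log2 rpkM in HBE LIEA (151 reads), 4.01 in A549 LIEA (104 reads) and -0.48 in Smart-seq2 (11 reads). Both LIEA libraries were high and Smart-seq2 was low, with a 29.3-fold difference within HBE (log2 4.87, 3.99 to 5.91). SLC25A37 (mitoferrin-1, known from erythroid cells) had 4.35, 4.93 and 3.19 log2 rpkM, a difference between the methods of 1.16 (0.85 to 1.48 from its smallest whole reads). The mitoferrins were alike in level in HBE LIEA, where SLC25A37 minus SLC25A28 was -0.05 log2 (-0.37 to 0.27). In A549 LIEA that difference was 0.92 (0.58 to 1.27) and in Smart-seq2 it was 3.66 (2.79 to 4.69).

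The ATP-Mg/phosphate carriers, which are regulated by calcium and set the adenine nucleotide pool of the matrix, differed in order between the methods. SLC25A23 had 5.39 log2 rpkM in HBE LIEA (670 reads), 4.43 in A549 LIEA (309 reads) and 2.36 in Smart-seq2 (175 reads). SLC25A24 had 3.08, 2.87 and 4.35 log2 rpkM, and SLC25A25 had 2.78, 2.37 and 4.35. SLC25A23 was thus the highest of the 3 genes in both LIEA libraries and the lowest in Smart-seq2. SLC25A23 minus SLC25A24 was 2.31 log2 in HBE LIEA (2.05 to 2.58), 1.55 in A549 LIEA (1.23 to 1.88) and -1.99 in Smart-seq2 (-2.23 to -1.75). Between the methods within HBE, the difference was 3.03 (2.79 to 3.28) for SLC25A23, -1.26 (-1.53 to -1.0) for SLC25A24 and -1.57 (-1.86 to -1.28) for SLC25A25.

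The phosphate carrier SLC25A3, which feeds phosphate to ATP synthesis, had 7.77 log2 rpkM in HBE LIEA (1916 reads), 7.75 in A549 LIEA (1705 reads) and 6.79 in Smart-seq2 (2085 reads). The LIEA libraries of the 2 lines were nearly equal, with a difference of -0.02 (-0.11 to 0.08), and the methods differed within HBE by 0.97 (0.88 to 1.06), or 1.17 on the TPM scale. SLC25A15 was also higher by LIEA than by Smart-seq2, by 1.05 (0.80 to 1.30), or 0.95 after centring on the median of all genes.

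On the other side, the carriers at least 2-fold lower by LIEA were SLC25A32, SLC25A25, SLC25A4, SLC25A38, SLC25A24, SLC25A26, SLC25A51 and SLC25A33, from the largest to the smallest difference. SLC25A32 had 3.41 log2 rpkM in HBE LIEA and 5.46 in Smart-seq2, a difference of -2.05 (-2.41 to -1.71 from its smallest whole reads). Its exons share 324 bases, 11.2% of its exonic bases, with DCAF13 on the opposite strand. DCAF13 had 4.17 log2 rpkM in HBE LIEA (219 reads) and 5.88 in Smart-seq2 (1534 reads), also lower by LIEA, and its part in the value of SLC25A32 was not tested. SLC25A38 had 4.04 log2 rpkM in both LIEA libraries and 5.32 in Smart-seq2, a difference between the methods of -1.28 (-1.54 to -1.04). The S-adenosylmethionine carrier SLC25A26 had 3.43, 2.66 and 4.69 log2 rpkM and a difference of -1.25 (-1.53 to -0.98).

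SLC25A52 and other carriers outside these 36, with under 10 reads in at least 1 HBE library, are given with wider intervals. SLC25A52 had 3 reads in HBE LIEA, 4 in A549 LIEA and 59 in Smart-seq2, with -0.86, -0.30 and 2.34 log2 rpkM. SLC25A51 had 50, 39 and 236 reads, with 1.54, 1.33 and 2.69 log2 rpkM. SLC25A51 minus SLC25A52 was 2.41 log2 in HBE LIEA (0.78 to 4.73), 1.63 in A549 LIEA (0.16 to 3.58) and 0.35 in Smart-seq2 (-0.07 to 0.79). Only the coding bases of the pair were compared, so how far their reads mix was not tested. SLC25A29 differed between the methods by 3.82 (2.74 to 5.11) from 53 and 8 reads, and the uncoupling-type carrier SLC25A27 by 3.56 (1.36 to 6.77) from 11 and 2 reads. SLC25A27 had -0.32, -1.31 and -3.88 log2 rpkM in the order used above. SLC25A42 had 10 reads in HBE LIEA and none in Smart-seq2. Against a floor of 3 reads in the Smart-seq2 library, and with the 10 reads taken as exact, it was at least 7.13-fold (2.83 log2) higher by LIEA. The exact counting interval, which also covers the error of the 10 reads, reached lower, to 2.26 log2. SLC25A14, another uncoupling-type carrier, had 0.17, 1.32 and 3.02 log2 rpkM in HBE LIEA, A549 LIEA and Smart-seq2, a difference between the methods of -2.84 (-5.17 to -1.21 from its smallest whole reads). SLC25A30, the third of this group, had 1.60, 1.38 and 1.91 log2 rpkM and differed by 2-fold in neither comparison.

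GC content and transcript length were set beside these differences. Over the 36 carriers the correlation of GC content with the difference LIEA minus Smart-seq2 was r = 0.31 (Spearman rho 0.33), against r = 0.39 over 11559 genes with a GC value (rho 0.39). The points share the same 2 libraries and are genes, not replicates, so these are descriptions. The median difference was -0.57 log2 for the 12 carriers below 45% GC, -0.44 for the 13 from 45 to 55% and 0.11 for the 11 at 55% and above. For all genes the same medians were -0.46, 0.23 and 0.78. With the logarithm of transcript length, r was -0.37 for the carriers and 0.26 for all genes. SLC25A28, with the largest difference, had 53.1% GC and a recovered length of 1555 bases, SLC25A6 had 60.7% and 1484 bases, and SLC25A23 had 58.7% and 3460 bases. SLC25A1, SLC25A10 and SLC25A22, with 64.5%, 65.4% and 63.7% GC, differed between the methods by -0.51, 0.46 and -0.63. The part of GC content in the differences was not tested.

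**Figure D4:**
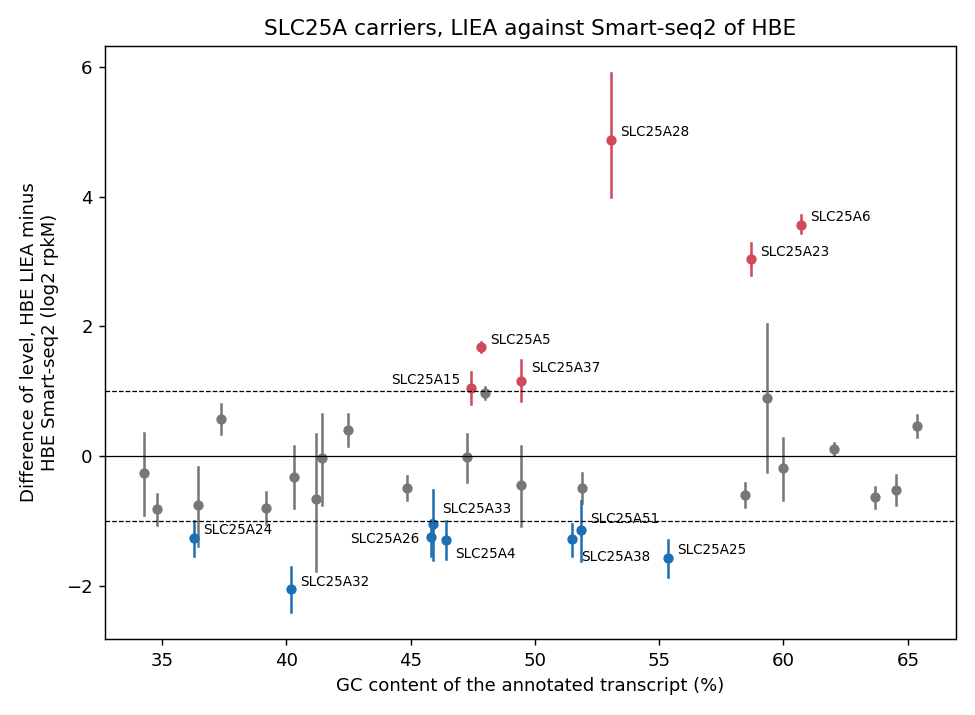
Difference of level, HBE LIEA minus HBE Smart-seq2 (log2 rpkM, vertical axis), against the GC content of the annotated transcript (%, horizontal axis) for 35 of the 36 carriers quantified by both; bars are exact 95% counting intervals, dashed lines mark 2-fold and named points lie past it. SLC25A28, SLC25A6 and SLC25A23 stand above the rest, while other carriers at 55% GC and more lie within 2-fold or, for SLC25A25, below.

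Other genes of mitochondrial transport, 19 in all, were read beside the family, of which 18 were listed. Of the 16 quantified in both LIEA libraries, 2 were at least 2-fold higher in A549 and none was lower, beside 13.5% and 17.3% of all genes. On the TPM scale 1 was higher and 2, CS and GOT1, were lower. The 2 higher genes were ACLY, which cleaves the citrate exported by SLC25A1, with 6.97 log2 rpkM in HBE LIEA and 7.98 in A549 LIEA (difference 1.01, 0.94 to 1.08, but 0.85 on the TPM scale), and MPC2, a subunit of the pyruvate carrier, with 2.95 and 4.41 (1.46, 1.09 to 1.84). The other subunit, MPC1, had 1.92 and 1.14 log2 rpkM (-0.78, -1.98 to 0.33). The shuttle enzymes MDH1, MDH2, GOT1 and GOT2 differed by 0.56, 0.13, -0.97 and -0.27, all within 2-fold on the deposited scale, where GOT1 is -1.13 on the TPM scale.

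UCP2 belongs to the same carrier family under another symbol, and was read from the list of other transport genes. It had 2 reads in HBE LIEA, 316 in A549 LIEA and none in HBE Smart-seq2. The 2 HBE libraries were at or near 0 and A549 was high, with a log2 difference by LIEA of 7.45 (4.95 to 12.77 from its smallest whole reads, 1 and 158). UCP3 had 8 reads in HBE LIEA, 18 in A549 LIEA and none in Smart-seq2, and UCP1 of brown fat was listed in none. MTCH1 and MTCH2, outer membrane members of the family, stayed within 2-fold between the lines, with differences of -0.34 and -0.57.

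Between the methods, 1 of the 15 other transport genes quantified in both HBE libraries was at least 2-fold higher by LIEA, namely ACLY, and 7 were lower, beside 27.8% higher and 19.4% lower among all genes. The latter were GOT2, MDH1, MPC1, MPC2, TIMM22, TIMM9 and VDAC2, with differences from -1.07 to -2.09. On the TPM scale 3 of these were still at least 2-fold lower, MDH1, MPC1 and TIMM9. Carriers of this family are inserted by the TIM22 complex with the help of the small TIM chaperones, and 2 of these chaperones differed in direction. TIMM10 had 159 reads in HBE LIEA, 179 in A549 LIEA and 9 in Smart-seq2 (difference between the methods 5.24, 4.28 to 6.39), while its partner TIMM9 had 66, 48 and 599 reads (-2.09, -2.48 to -1.72).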

How the data were processed

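Gene values were taken from 3 libraries, 1 per condition. RefSeq-RNA was the mapping reference, used with the FANSe2 algorithm. Splice variants were merged, and the authors deposited 1 value for each gene as log2 rpkM. Genes without reads are not listed. The labels name hg19, which is GRCh37. In each library, 4 rows whose names had become repeated dates were left out. The ratio of totals between libraries came from the most frequent ratio of values. The totals were then found by a search, from high to low, for whole-number transcript lengths, which 89.0% of 300 genes gave. All 18856 genes then gave whole reads, known up to a whole factor from 1 to 12 that was set by GENCODE transcript lengths and was above 1 for 5 carriers (SLC25A14, SLC25A16, SLC25A32, SLC25A33 and SLC25A37). For these, the intervals of single genes and of paralog pairs rest on the smallest whole reads. The family read sums and their intervals use the reads with the factor. Recovered reads sum to between 101.3 and 101.88% of the totals. Some factors may be too large, and the source of the excess was not tested. The recovery was also run on data simulated from the recovered lengths and reads, which cannot show a wrong factor in the real data.

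Differences are of log2 rpkM between genes with at least 10 reads in both libraries, with 2-fold as the limit. GC content is that of the annotated transcript nearest in length. Sequences come from GENCODE on GRCh37, and gene counts of the family from RefSeq. Protein sequences were not used here. For 1 carrier, which enters the counts and medians, the values are not reported here. The genes with full values are those at least 2-fold apart and the paralogs of 1 carrier. ACLY, MPC2, UCP2 and the other transport genes are from a set list, and genes on the opposite strand were named for their exonic overlap with a carrier. Exonic bases are those of the annotated transcripts of a gene together, so an overlap may lie outside the counted transcript. The members and lists were chosen with earlier results of these data known. Python 3.11.15, numpy 2.4.6, scipy 1.17.1 and pandas 2.3.3 were used.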

Additional observations from a re-analysis of the deposited data

How the results depend on the processing

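No paired analysis was possible because no result comes from a test: there is 1 library per condition, and leaving out a replicate is not possible either. The number of carriers at least 2-fold higher in A549 than in HBE by LIEA was 6 as reported, 3 on the TPM scale and 3 with log2(rpkM + 1). On the TPM scale SLC25A1, SLC25A43 and SLC25A45, which lie close to the limit, were under it, and with log2(rpkM + 1) SLC25A42, SLC25A43 and SLC25A45 were. Of the lower carriers of this comparison, SLC25A12 and SLC25A32 were under 2-fold after centring and with log2(rpkM + 1), while SLC25A23 and SLC25A39 were past it on the TPM scale. Between the methods, SLC25A33 and SLC25A51 were under 2-fold on the TPM scale and with log2(rpkM + 1), SLC25A15 after centring and with log2(rpkM + 1), and SLC25A3 and SLC25A35 were past it on the TPM scale. Rescaling of the other transport genes was chosen after seeing the data: the TPM scale gave 1 higher and 2 lower in A549 against 2 and 0, and 1 higher and 3 lower by LIEA against 1 and 7. The other 47 values of counts and medians under an alternative stayed within 1.5 times the reported count or within the order-statistic interval of the reported median. These alternatives were a minimum of 20 reads, no minimum, rpkM above 1, a Smart-seq2 minimum raised with its total, the smallest whole reads, the TPM scale, centring on the median of all genes, and log2(rpkM + 1). Of single genes, the difference between LIEA and Smart-seq2 of SLC25A28 was 3.68 with log2(rpkM + 1), that of SLC25A5 1.88 on the TPM scale and 1.58 after centring, and that of SLC25A6 3.77 on the TPM scale. None of the differences of at least 2-fold reversed. Depth limits SLC25A18, SLC25A41, SLC25A42, SLC25A14, SLC25A21, SLC25A27, SLC25A29, SLC25A34 and SLC25A52, each with 10 reads or fewer in at least 1 library.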

Other observations

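The other symbols of the family are not carriers. SLC25A5-AS1, antisense to the most abundant carrier gene, had 11 reads in HBE LIEA, 6 in A549 LIEA and 11 in Smart-seq2, while SLC25A5 had 3572, 3292 and 2385. SLC25A21-AS1 had 6, 0 and 4 reads, or 3, 0 and 2 as its smallest whole reads, and shares 326 exonic bases with SLC25A21 on the opposite strand. SLC25A30-AS1 had 1 read, in Smart-seq2, and the pseudogene SLC25A51P1 had 1, 1 and 4.

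LRIG1, an EGFR regulator on the opposite strand that shares 1103 exonic bases with SLC25A26, had 45 reads in HBE LIEA, 95 in A549 LIEA and 30 in Smart-seq2, where SLC25A26 had 133, 70 and 677. The orders of the 3 libraries are opposite for these genes.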
